A study of Homo sapiens with 6 samples.

Results

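The 10 genes described here are core and accessory genes of the circadian clock: CLOCK, the period genes PER1, PER2 and PER3, the cryptochromes CRY1 and CRY2, the nuclear receptors NR1D1 and NR1D2, and the bZIP factors DBP and NFIL3. They were taken by gene symbol from the deposited count table, where each has 1 row of 60612 genes in all. RNA was sequenced from HepG2 cells, an established human liver cancer line, in 6 libraries. In 3 libraries the cells carried a lentiviral shRNA against circPRKAA1 (sh-circPRKAA1), a circular RNA from PRKAA1, which encodes a catalytic subunit of the energy sensor AMPK. The other 3 came from cells with a control lentivirus (sh-ctrl), and the labels give the genotype WT for both groups. No synchronisation of the cultures and no hour of harvest is given in the sources used here, so a level is that of a culture at 1 unstated time and says nothing of rhythm. The circle has no row in the table, so its knockdown could not be checked. The row of PRKAA1 itself does not separate circle from messenger RNA. PRKAA1 had 82.4, 76.0 and 80.6 CPM in sh-circPRKAA1 libraries and 31.8, 48.8 and 45.4 CPM in sh-ctrl libraries. Its log2 change of sh-circPRKAA1 over sh-ctrl was 0.92 by edgeR. In the fit described below that adjusts for base composition and length it was only 0.17. The size of the rise of PRKAA1 thus depended on that adjustment.

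The circadian clock is a transcriptional loop. CLOCK, or its paralog NPAS2, pairs with BMAL1 (gene ARNTL) and binds E-boxes in the promoters of PER, CRY, NR1D and DBP genes. PER and CRY proteins return to the nucleus and inhibit that pair. A second loop runs through BMAL1 itself, which NR1D1 and NR1D2 (REV-ERB alpha and beta) repress and ROR receptors activate at shared sites. DBP activates and NFIL3 represses through D-boxes, and in liver these arms time the synthesis of enzymes of lipid, bile acid, glucose and drug metabolism. In mouse cells AMPK phosphorylates CRY1 and marks it for degradation.

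The libraries held 17047886, 17549690 and 16348435 counts in sh-circPRKAA1 cells and 16284262, 20282496 and 19126452 in sh-ctrl cells. Each clock gene had 52 to 1148 counts in every library, and all 10 passed the filter on low counts. The 2 groups stood far apart across the transcriptome: 10257 of 14990 tested genes (68.4%) passed an adjusted p of 0.05 in edgeR's quasi-likelihood test, 36.1% higher and 32.4% lower in sh-circPRKAA1 cells. Fold changes varied with base composition, from a median log2 change of 0.57 among the 2247 genes with at most 40% GC to -0.34 among the 2204 genes above 60% GC. Weighted by counts, the GC content of genes averaged 48.8, 49.0 and 48.9% in sh-circPRKAA1 libraries and 50.7, 49.9 and 50.3% in sh-ctrl libraries. A fit with offsets for GC content and length per library, which removes any difference between the groups that follows either property, is given where it changed a call. By that fit 29.3% of genes were higher and 40.6% lower. The share of higher genes among all calls was 52.7% with TMM scaling, 65.7% with library totals, 71.6% with TPM scaling and 41.9% with the offsets. All 10 markers of hepatocyte-derived cells had a mean FPKM of at least 1, with a summed FPKM of 6770 to 6970 in sh-circPRKAA1 libraries and 8500 to 8690 in sh-ctrl libraries. That gap rests on APOA1: without it the other 9 markers summed to 5150 to 5260 FPKM in sh-circPRKAA1 libraries and 4720 to 5380 FPKM in sh-ctrl libraries, and of the 10 markers 2 were called higher, 5 lower and 3 not. None of 8 mesenchymal markers reached that level, although the culture description calls the cells mesenchymal. Their summed FPKM was 0.396 to 0.42 in sh-circPRKAA1 libraries and 0.623 to 0.667 in sh-ctrl libraries. None of 3 endothelial markers and 2 of 5 leukocyte markers (mainly LYZ) reached it. The leukocyte list summed to 351 to 367 FPKM in sh-circPRKAA1 libraries and 446 to 490 FPKM in sh-ctrl libraries. That sum is almost all LYZ. Without it the other leukocyte markers went the other way, with 2.3 to 2.81 FPKM in sh-circPRKAA1 libraries and 0.768 to 1.69 FPKM in sh-ctrl libraries. The part of these differences in the results below was not tested, and in such bulk RNA fewer cells of a type and less RNA per cell cannot be told apart.

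Of the 10 clock genes, 6 rose in sh-circPRKAA1 cells (CLOCK, PER3, CRY1, CRY2, NR1D1 and NR1D2), 2 fell (PER1 and DBP), and PER2 and NFIL3 did not pass. Their median log2 change was 0.50, against 0.05 over all tested genes. The 8 called of 10 (80%) stand beside 68.4% of all genes, so the number called is near the background and is no result about the clock genes. The 3 libraries of one group lay entirely above or below the other for 9 of the 10, against 72.1% of all tested genes. By the fit with GC and length offsets 4 rose (PER3, CRY1, CRY2 and NR1D1) and 3 fell (PER1, PER2 and DBP), with a median of 0.10 against -0.09 over all genes. Levels are given below as CPM, for which TMM brings the libraries to one scale. Fold changes are log2 values of sh-circPRKAA1 over sh-ctrl from edgeR, with their standard error, and p-values are adjusted over all tested genes by Benjamini-Hochberg.

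**Figure D1:**
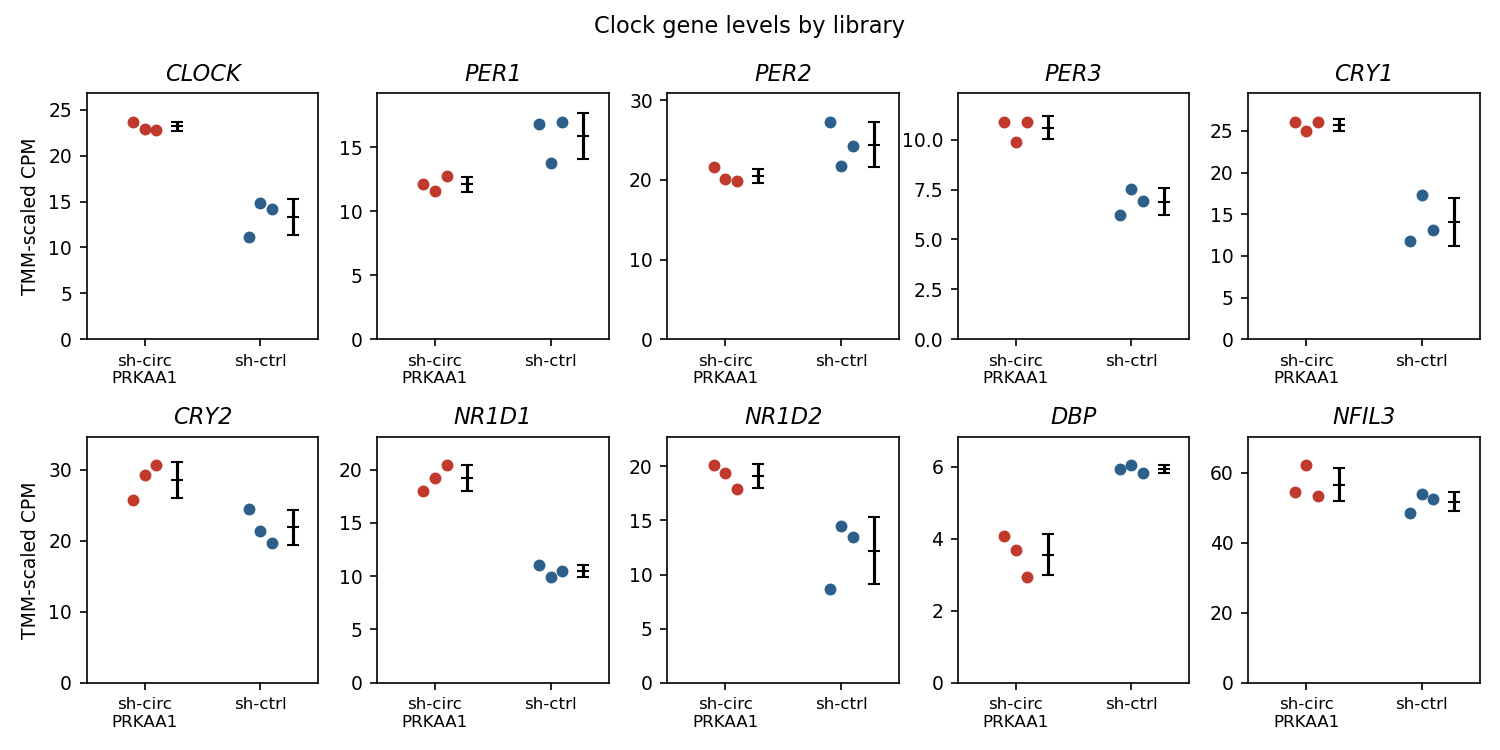
TMM-scaled CPM of each of the 10 clock genes in each library, with a separate y axis from 0 for each gene. Points are libraries (3 per group) and the black bars show mean and SD. For every gene except NFIL3 the groups are apart, with PER1, PER2 and DBP lower in sh-circPRKAA1 cells and the other 6 higher.

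CLOCK, the histone acetyltransferase and DNA-binding partner of BMAL1, lies on the minus strand of chr4:55427903-55546909 (GRCh38; ENSG00000134852). It had 23.7, 22.9 and 22.8 CPM in sh-circPRKAA1 libraries and 11.1, 14.8 and 14.2 CPM in sh-ctrl libraries. The sh-circPRKAA1 libraries were close together and all above the sh-ctrl libraries, among which replicate 1 was lowest. The log2 change was 0.79 (SE 0.12, adjusted p = 1.88e-05 by edgeR), or 1.73-fold. CLOCK is AT-rich, with 37.2% GC in its longest transcript, and the change fell to 0.03 with the GC and length offsets (adjusted p = 0.749, range over the 20 alternatives 3.59e-09 to 0.774). The call for CLOCK thus depended on that adjustment. TMEM165, on the opposite strand, shares 76 exonic bases with CLOCK and had a log2 change of 0.24.

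The 3 period genes encode PAS-domain proteins that carry cryptochromes into the nucleus and are the rate-setting, casein kinase-regulated part of the negative arm. They did not move together: PER3 rose, PER1 fell and PER2 did not pass. PER1 (ENSG00000179094, chr17:8140472-8156506, minus strand) had 12.1, 11.6 and 12.8 CPM in sh-circPRKAA1 libraries and 16.8, 13.8 and 17.0 CPM in sh-ctrl libraries. All 3 sh-circPRKAA1 libraries were below the lowest sh-ctrl library, replicate 2. The log2 change was -0.38 (SE 0.12, adjusted p = 0.00908 by edgeR). Its direction held under each scaling, but the call was lost with library totals (-0.18) and with TPM scaling (-0.09, adjusted p = 0.526, range over alternatives 4.21e-04 to 0.526).

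PER2 (ENSG00000132326, chr2:238244044-238290102, minus strand) had 21.6, 20.1 and 19.9 CPM in sh-circPRKAA1 libraries and 27.3, 21.7 and 24.2 CPM in sh-ctrl libraries. The groups did not overlap, but the highest sh-circPRKAA1 library and the lowest sh-ctrl library were nearly level. The log2 change of -0.24 (SE 0.11) missed the threshold in edgeR (adjusted p = 0.0545), and the sign turned with TPM scaling (0.05). Without sh-ctrl replicate 2 the change was -0.37 and passed (adjusted p = 0.00403), and with the GC and length offsets it was -0.26 (adjusted p = 0.0114), in a range over alternatives of 0.00403 to 0.752.

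PER3 (ENSG00000049246, chr1:7784320-7845177, plus strand), which in mice is not needed for rhythm itself, had 10.9, 9.90 and 10.9 CPM in sh-circPRKAA1 libraries. In sh-ctrl libraries it had 6.22, 7.55 and 6.94 CPM. The groups were well apart, with a gap wider than the spread within either. PER3 rose by a log2 change of 0.61 (SE 0.13, adjusted p = 6.72e-04 by edgeR), or 1.52-fold, and passed in all 20 alternatives, with a log2 change of 0.37 under the GC and length offsets. UTS2, which shares 868 exonic bases on the opposite strand, had at most 1 count in any library.

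Promoter windows of the period genes are shown with the motifs of the loop that each holds. The windows run from 250 bases before to 50 after the RefSeq start (GRCh38.p14), 5′ to 3′ on the gene's strand: PER1 at chr17:8152355-8152654 (minus), PER2 at chr2:238288561-238288860 (minus) and PER3 at chr1:7784041-7784340 (plus). For PER3 this is 1 of 2 RefSeq windows, and the other (chr1:7784179-7784478) held no match to any motif searched. Capitals mark an E-box (CACGTG) in PER1, an E-prime box (CACGTT) and a D-box (TTACGTAA) in PER2, and a D-box (TTATGTAA) in PER3.
PER1: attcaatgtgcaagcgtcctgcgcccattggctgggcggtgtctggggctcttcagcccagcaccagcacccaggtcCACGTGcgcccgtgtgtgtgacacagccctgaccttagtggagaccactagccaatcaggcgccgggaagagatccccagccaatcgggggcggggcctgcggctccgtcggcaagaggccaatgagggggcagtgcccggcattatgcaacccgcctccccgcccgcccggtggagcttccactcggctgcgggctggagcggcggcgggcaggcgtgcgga
PER2: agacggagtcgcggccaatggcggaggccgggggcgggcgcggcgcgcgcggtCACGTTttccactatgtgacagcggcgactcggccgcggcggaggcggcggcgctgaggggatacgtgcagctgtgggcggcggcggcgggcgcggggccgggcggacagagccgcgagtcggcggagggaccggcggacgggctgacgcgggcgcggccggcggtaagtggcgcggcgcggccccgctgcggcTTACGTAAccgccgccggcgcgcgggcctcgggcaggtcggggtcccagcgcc
PER3: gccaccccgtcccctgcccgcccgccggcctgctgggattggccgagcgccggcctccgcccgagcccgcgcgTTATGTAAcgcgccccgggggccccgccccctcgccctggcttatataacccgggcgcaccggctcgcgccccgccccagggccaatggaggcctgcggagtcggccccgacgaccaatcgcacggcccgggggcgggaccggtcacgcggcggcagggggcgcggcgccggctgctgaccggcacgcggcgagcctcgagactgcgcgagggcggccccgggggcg
The E-box of PER1 starts 173 bases before the RefSeq start, the E-prime box of PER2 197 bases before it, and the D-box of PER3 177 bases before it. The window of PER1 held no D-box, and neither window of PER3 held an E-box. A missing match says only that these letters are not in the window.

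CRY1 and CRY2 encode the flavoproteins that are the direct inhibitors of CLOCK and BMAL1, and both rose. CRY1 (ENSG00000008405, chr12:106991364-107093549, minus strand) had 26.1, 25.0 and 26.1 CPM in sh-circPRKAA1 libraries and 11.8, 17.3 and 13.1 CPM in sh-ctrl libraries. The sh-circPRKAA1 values were nearly equal, while sh-ctrl replicate 2 stood above the other sh-ctrl libraries. The log2 change was 0.86 (SE 0.13, adjusted p = 1.80e-05 by edgeR), or 1.82-fold. Its longest transcript has 37.2% GC, as that of CLOCK, and with the GC and length offsets the change was 0.28 and still passed (adjusted p = 0.0063, range over alternatives 2.89e-11 to 0.00785).

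CRY2 (ENSG00000121671, chr11:45847118-45883248, plus strand) had 25.7, 29.2 and 30.6 CPM in sh-circPRKAA1 libraries and 24.5, 21.3 and 19.7 CPM in sh-ctrl libraries. The groups came close, since sh-circPRKAA1 replicate 1 was only just above sh-ctrl replicate 1. The log2 change was 0.39 (SE 0.11, adjusted p = 0.00517 by edgeR), or 1.31-fold. CRY2 is GC-rich (57.0%), and the change was 0.47 with the offsets. Without sh-ctrl replicate 3 it was 0.28 and did not pass (adjusted p = 0.0654, range over alternatives 3.83e-05 to 0.0654).

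NR1D1 and NR1D2 encode heme-binding receptors that recruit the NCOR1 and HDAC3 corepressor complex to BMAL1 and to lipid genes of the liver. NR1D1 (ENSG00000126368, chr17:40092793-40100589, minus strand) had 18.0, 19.2 and 20.4 CPM in sh-circPRKAA1 libraries and 11.0, 9.89 and 10.5 CPM in sh-ctrl libraries. The lowest sh-circPRKAA1 library was far above the highest sh-ctrl library. NR1D1 rose by a log2 change of 0.88 (SE 0.11, adjusted p = 3.43e-06 by edgeR), or 1.84-fold. It passed in all 20 alternatives, with log2 changes of 0.71 to 1.17. Unlike CLOCK and CRY1 it is GC-rich, at 59.5%, where the median of genes of 55 to 60% GC was -0.27. With the GC and length offsets its change was 1.12.

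NR1D1 shares 263 exonic bases with THRA, the thyroid hormone receptor gene on the opposite strand, and the strand setting of the counting is not given in the sources used here, so reads of those bases cannot be assigned. THRA had 39.4, 36.9 and 38.3 CPM in sh-circPRKAA1 libraries and 47.9, 40.5 and 41.9 CPM in sh-ctrl libraries. Its log2 change of -0.18 (SE 0.09, adjusted p = 0.0787 by edgeR) had the sign opposite to that of NR1D1.

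NR1D2 (ENSG00000174738, chr3:23945286-23980617, plus strand) had 20.1, 19.4 and 17.9 CPM in sh-circPRKAA1 libraries and 8.69, 14.5 and 13.5 CPM in sh-ctrl libraries. The groups were apart, with sh-ctrl replicate 1 well below the other sh-ctrl libraries. The log2 change was 0.64 (SE 0.15, adjusted p = 0.00128 by edgeR), and without sh-ctrl replicate 1 it was 0.43 and passed. NR1D2 has 38.5% GC, and with the GC and length offsets the change was 0.09 and did not pass (adjusted p = 0.45, range over alternatives 8.48e-06 to 0.45). Both receptor genes thus rose in CPM, but with the offsets NR1D1 alone passed. Their ratio within each library, given below, had a log2 difference of 0.19 between the groups, which overlapped (exact permutation p = 0.5, smallest possible 0.1). The difference between their changes with the offsets was not tested.

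The receptor promoters are shown because the 2 paralogs are targets of the same activators and differ in the GC content of their transcripts. The windows are chr17:40100540-40100839 (minus strand) for NR1D1 and chr3:23945871-23946170 (plus strand), 1 of 2 RefSeq windows, for NR1D2. Capitals mark an E-prime box on the opposite strand (read as AACGTG) in NR1D1. In NR1D2 they mark a D-box, also on the opposite strand (read as TTACATAA), followed by 2 E-boxes. The other window of NR1D2 (chr3:23945036-23945335) held no match to any motif searched.
NR1D1: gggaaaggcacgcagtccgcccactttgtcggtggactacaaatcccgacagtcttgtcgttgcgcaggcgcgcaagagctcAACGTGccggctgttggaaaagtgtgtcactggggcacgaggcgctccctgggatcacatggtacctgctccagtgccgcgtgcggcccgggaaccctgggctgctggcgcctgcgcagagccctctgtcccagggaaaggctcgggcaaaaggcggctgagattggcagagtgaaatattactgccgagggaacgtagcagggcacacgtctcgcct
NR1D2: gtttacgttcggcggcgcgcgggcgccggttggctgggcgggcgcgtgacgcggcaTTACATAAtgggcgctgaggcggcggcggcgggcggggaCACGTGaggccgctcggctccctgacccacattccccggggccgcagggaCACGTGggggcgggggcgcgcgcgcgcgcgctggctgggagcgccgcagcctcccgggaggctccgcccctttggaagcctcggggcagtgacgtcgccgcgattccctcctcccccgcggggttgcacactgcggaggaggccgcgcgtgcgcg
The E-boxes of NR1D2 start 155 and 105 bases before the RefSeq start and its D-box 194 bases before it.

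Across all 10 genes, the 15 RefSeq windows held an E-box (CACGTG) in 2 genes (PER1 and NR1D2) and an E-prime box (CACGTT) in 5 (CLOCK, PER2, CRY1, CRY2 and NR1D1). A D-box (TTATGTAA or TTACGTAA) was found in 3 (PER2, PER3 and NR1D2), the core of the receptor site (TAGGTCA) in 2 (CRY2 and NFIL3), and the cAMP response element (TGACGTCA) in 0. Both strands were read. Counted by window, 2 of the 15 held the E-box, 5 the E-prime box, 3 the D-box, 2 the receptor core and 0 the cAMP response element. Of all 35116 RefSeq windows, 7.26% held the E-box, 5.34% the E-prime box, 1.01% the D-box, 1.85% the receptor core and 1.85% the cAMP response element. Genes with an E-prime box included members that rose in CPM (CLOCK, CRY1, CRY2 and NR1D1) and PER2, which did not pass. The 2 genes with an E-box went in opposite directions.

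The D-box factors are read as a pair, since DBP activates and NFIL3 represses at the same site. DBP (ENSG00000105516, chr19:48630030-48637379, minus strand) had 4.07, 3.68 and 2.94 CPM in sh-circPRKAA1 libraries and 5.95, 6.04 and 5.82 CPM in sh-ctrl libraries. The sh-ctrl values were almost the same and every sh-circPRKAA1 library was lower. DBP fell by 0.73 on the log2 scale (SE 0.17, adjusted p = 0.00105 by edgeR), to 0.602 of its sh-ctrl level. The call held in all 19 alternatives that tested it, and the change with the GC and length offsets was -0.65. It rests on 75, 68 and 52 counts in sh-circPRKAA1 libraries and 89, 116 and 104 in sh-ctrl libraries, the fewest of the 10 genes.

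DBP also shares 661 exonic bases with SPHK2, a sphingosine kinase gene on the opposite strand. SPHK2 had 10.3, 10.5 and 8.03 CPM in sh-circPRKAA1 libraries and 22.3, 18.2 and 20.3 CPM in sh-ctrl libraries. It fell as well, by 1.07 on the log2 scale (SE 0.13, adjusted p = 2.03e-06 by edgeR). How far reads of SPHK2 enter the row of DBP cannot be told apart from these counts, so the fall of DBP is uncertain.

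NFIL3 (ENSG00000165030, chr9:91409045-91423832, minus strand) had 54.6, 62.1 and 53.2 CPM in sh-circPRKAA1 libraries and 48.5, 53.8 and 52.6 CPM in sh-ctrl libraries. It was the only one of the 10 genes whose groups overlapped. The log2 change was 0.13 (SE 0.09, adjusted p = 0.183 by edgeR). It passed as higher with library totals (0.33), with TPM scaling (0.42, adjusted p = 0.00108) and in both limma fits on FPKM, in a range over alternatives of 0.00108 to 0.616. Gene by gene, the log2 changes in those fits were higher than in edgeR with TMM scaling by a median of 0.17 to 0.29.

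**Figure D2:**
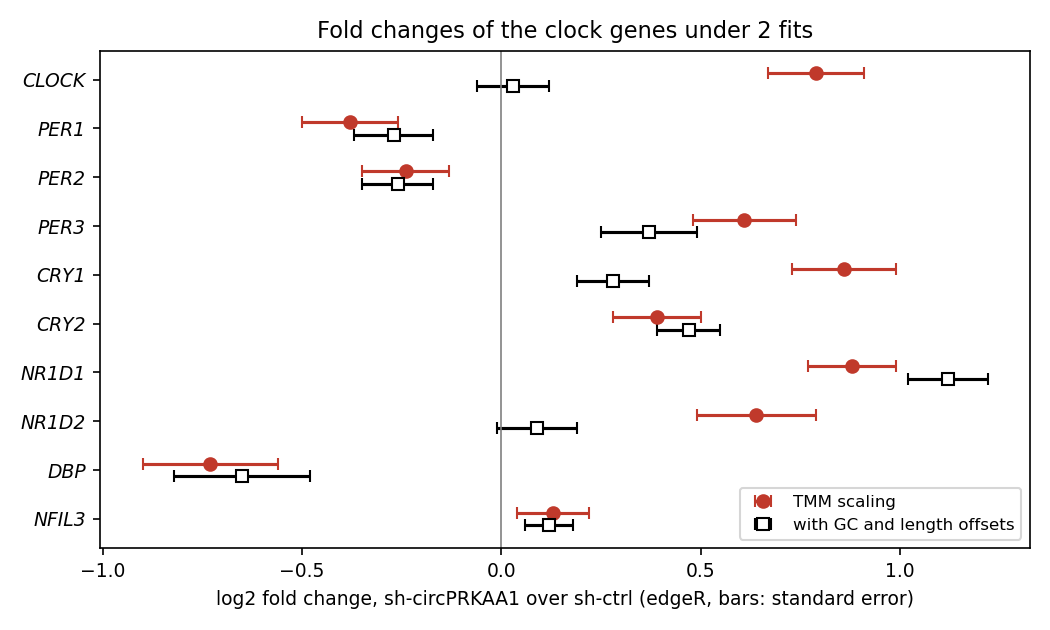
Log2 fold changes of the 10 clock genes, sh-circPRKAA1 over sh-ctrl, by edgeR with TMM scaling (red circles) and with GC and length offsets (open squares). Bars show the standard error over 6 libraries. CLOCK and NR1D2 move to near 0 with the offsets, whereas NR1D1 has 0.88 with TMM scaling and 1.12 with the offsets, and DBP -0.73 and -0.65.

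**Figure D3:**
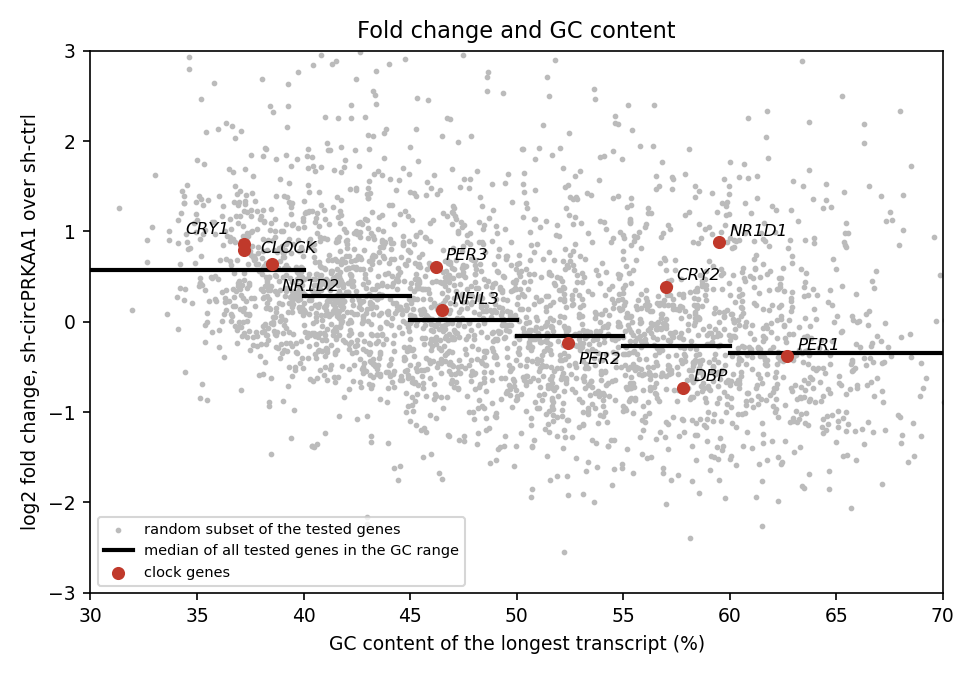
Log2 fold change against GC content of the longest transcript for a random subset of tested genes (grey), with the median of all tested genes in each GC range (black lines) and the 10 clock genes (red). The y axis is limited to between -3 and 3, so some grey points are not drawn. CLOCK, CRY1 and NR1D2 are the 3 clock genes at up to 40% GC, where the median is 0.57, and NR1D1 and CRY2 lie above the median of their range.

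Set per exonic length, NFIL3 was the most abundant of the 10 messages, with 27.6 ± 2.35 FPKM in sh-circPRKAA1 cells and 25.1 ± 1.35 in sh-ctrl cells (SD, n = 3 each). NR1D1 came next in both groups, with 7.30 ± 0.455 FPKM in sh-circPRKAA1 cells and 3.98 ± 0.205 in sh-ctrl cells. In sh-circPRKAA1 cells the order below NR1D1 was CRY1 (5.38), CRY2 (4.60), NR1D2 (3.31), PER2 (2.99), CLOCK (2.01), PER1 (1.73), PER3 (1.30) and DBP (0.55), in mean FPKM. Only the neighbours NR1D2 and PER2 overlapped between libraries there. In sh-ctrl cells PER2 (3.55), CRY2 (3.53), CRY1 (2.95), PER1 (2.27), NR1D2 (2.11), CLOCK (1.16), DBP (0.915) and PER3 (0.852) followed. Neighbours overlapped more often in that order: NR1D1 with PER2, PER2 with CRY2, CRY2 with CRY1, PER1 with NR1D2, and DBP with PER3. In sh-ctrl cells the range of PER2 thus overlapped those of NR1D1 and the cryptochromes, although PER2 was below NR1D1 within each library. In sh-circPRKAA1 cells PER2 was below NR1D1 and both cryptochromes in every library. These levels are without the GC and length offsets. FPKM uses the length over all annotated exons, so a gene with many little-used exons is understated against the others.

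Ratios of 2 messages within a library do not depend on scaling between libraries. The smallest p of an exact two-sided permutation test of 3 against 3 libraries is 0.1, so no ratio could pass 0.05. PER3 per PER2 was 0.427, 0.418 and 0.466 in sh-circPRKAA1 libraries and 0.194, 0.296 and 0.244 in sh-ctrl libraries, a log2 difference of 0.86 (SE 0.18, exact p = 0.1). DBP per NFIL3 was 0.0238, 0.0189 and 0.0177 in sh-circPRKAA1 libraries and 0.039, 0.0357 and 0.0352 in sh-ctrl libraries, a log2 difference of -0.87 (SE 0.14, exact p = 0.1). CRY1 per CRY2 was 1.32, 1.11 and 1.11 in sh-circPRKAA1 libraries and 0.626, 1.06 and 0.86 in sh-ctrl libraries, a log2 difference of 0.50 (SE 0.23, exact p = 0.1). In these 3 pairs the libraries of the groups did not overlap, although sh-ctrl replicate 2 came near for the cryptochromes. PER1 per PER2 (log2 difference -0.14, exact p = 0.3) and NR1D1 per NR1D2 (0.19, exact p = 0.5) overlapped between the groups. Adjusted over the 5 pairs, the smallest p was 0.167. Members of a pair differ in GC content in most of these ratios, which the ratio does not remove.

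**Figure D4:**
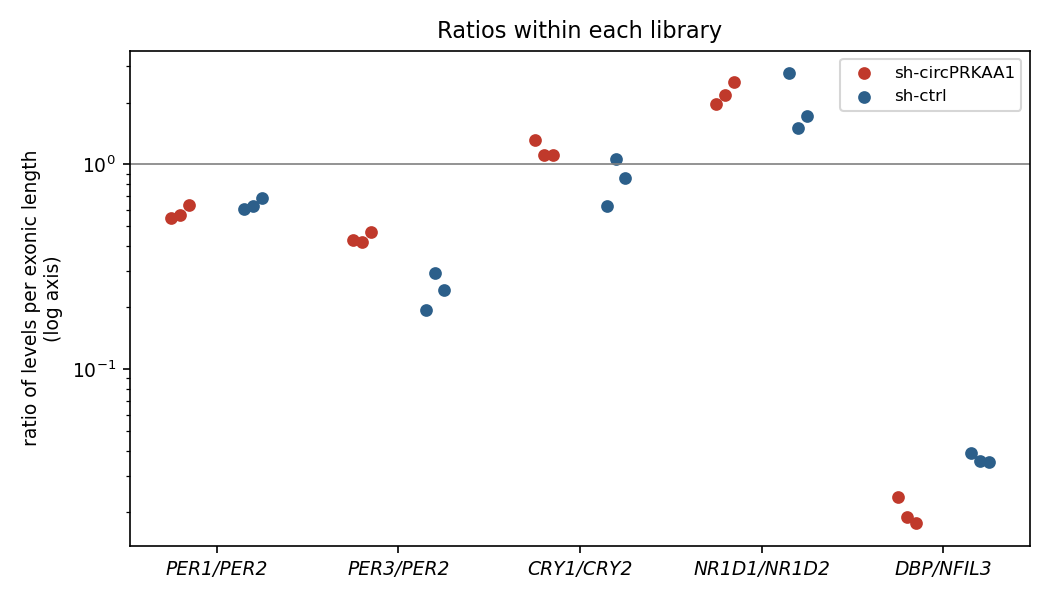
Ratio of levels per exonic length within each library for 5 pairs of clock genes, on a log axis, with sh-circPRKAA1 libraries (red) left of sh-ctrl libraries (blue). The line marks a ratio of 1. Groups are apart for PER3/PER2, CRY1/CRY2 and DBP/NFIL3 and overlap for PER1/PER2 and NR1D1/NR1D2.

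Among 36 other genes of the clock, 32 were tested, of which 13 rose, 12 fell and 7 did not pass, with a median log2 change of 0.05, that of all tested genes. The called share of 78.1% again lies beside the 68.4% of all genes. Over all tested genes 36.1% were higher and 32.4% lower. With the GC and length offsets 9 rose and 19 fell, beside 29.3% higher and 40.6% lower over all genes. By role, 4 of 5 tested activators and ROR factors rose and 1 fell, against 3 and 1 with the offsets. Both tested further repressors fell with and without the offsets. Of 9 corepressors and partners 5 fell and 2 rose, against 8 and 1 with the offsets. Differences between these small groups were not tested. Of 14 tested kinases and ubiquitin factors 6 rose and 4 fell, but with the offsets 4 rose and 7 fell, and the median log2 change was -0.16 in place of 0.09.

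RORA, the receptor that activates BMAL1 at the sites that NR1D1 occupies, stood farthest from 0 of the tested clock genes in edgeR with TMM scaling. It had 20.4, 20.8 and 21.3 CPM in sh-circPRKAA1 libraries and 3.21, 5.41 and 4.59 CPM in sh-ctrl libraries. The groups were far apart, at 4.67-fold (log2 change 2.22, SE 0.15, adjusted p = 3.26e-09 by edgeR). RORA is AT-rich (35.8% GC), and its change was 1.32 with the GC and length offsets. RORB had no count in any library.

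ARNTL, the gene of BMAL1, had 4.56, 4.93 and 5.54 CPM in sh-circPRKAA1 libraries and 3.14, 3.12 and 4.48 CPM in sh-ctrl libraries. The groups nearly met. The log2 change of 0.48 (SE 0.19, adjusted p = 0.0308 by edgeR) was lost in 8 of 19 alternatives, among them the fits without sh-circPRKAA1 replicate 2 (adjusted p = 0.0597) or 3 (0.118), without sh-ctrl replicate 1 (0.0794) or 2 (0.146), and with the GC and length offsets (0.541), in a range over alternatives of 0.00397 to 0.541. A receptor core (TAGGTCA) lies 30 bases after a RefSeq start of ARNTL. Its paralog ARNTL2 rose by a log2 change of 0.91 (SE 0.12, adjusted p = 4.41e-06 by edgeR), and by 0.43 with the offsets. NPAS2, which can replace CLOCK, had 86.7, 84.3 and 86.9 CPM in sh-circPRKAA1 libraries and 53.4, 55.2 and 55.8 CPM in sh-ctrl libraries. It rose by a log2 change of 0.65 (SE 0.07, adjusted p = 1e-06 by edgeR) and passed in all 20 alternatives, with 0.42 under the offsets. Per length NPAS2 exceeded CLOCK, with 6.87 ± 0.114 FPKM against 2.01 ± 0.0434 FPKM in sh-circPRKAA1 cells and 4.38 ± 0.0978 against 1.16 ± 0.171 FPKM in sh-ctrl cells (SD, n = 3 each).

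The further E-box repressor BHLHE40 (DEC1) had 45.3, 44.8 and 48.5 CPM in sh-circPRKAA1 libraries and 70.3, 68.2 and 65.5 CPM in sh-ctrl libraries. It fell by 0.56 on the log2 scale (SE 0.08, adjusted p = 1.03e-05 by edgeR), and TIMELESS, with a main role at replication forks in mammals, fell by 0.54. BHLHE41 (3, 9 and 11 counts in sh-circPRKAA1 libraries, 0 in each sh-ctrl library) and CIART (4, 2 and 6 counts in sh-circPRKAA1 libraries, 0, 0 and 3 in sh-ctrl libraries) were too rare to pass the filter. In the alternative with no filter on low counts, BHLHE41 had a log2 change of 5.92 (adjusted p = 1.24e-04 by edgeR). CIART had 1.79 there and did not pass (adjusted p = 0.229 by edgeR). TEF and HLF are the remaining D-box activators. TEF had 19.3, 19.9 and 22.2 CPM in sh-circPRKAA1 libraries and 19.0, 16.5 and 18.7 CPM in sh-ctrl libraries, with a log2 change of 0.18 that did not pass (SE 0.11, adjusted p = 0.145 by edgeR). With the GC and length offsets its change was 0.31 and passed (adjusted p = 0.00354 by edgeR, range over alternatives 0.00263 to 0.606). HLF was the most abundant of the 3, at 43.8 ± 2.37 FPKM in sh-circPRKAA1 cells and 38.3 ± 3.09 FPKM in sh-ctrl cells (SD, n = 3 each). It had a log2 change of 0.19 (SE 0.08, adjusted p = 0.0348 by edgeR). With the offsets the change turned to -0.15 and was called lower (adjusted p = 0.0153 by edgeR).

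Among the enzymes that set the life of PER and CRY proteins, the ubiquitin ligase subunits FBXW7 and BTRC and the kinase GSK3B rose, by log2 changes of 1.15, 0.56 and 0.61. With the offsets these were 0.84, 0.33 and 0.17, all still past the threshold. USP2, a deubiquitinase of PER1 and CRY proteins that is rhythmic in mouse liver, had 9.72, 11.3 and 12.0 CPM in sh-circPRKAA1 libraries and 27.1, 24.2 and 24.2 CPM in sh-ctrl libraries. It fell by 1.19 on the log2 scale (SE 0.11, adjusted p = 1.55e-07 by edgeR). DDB1, an adaptor of the ligase that degrades CRY1 in mouse liver, fell by 0.78 and the kinase subunit CSNK2B by 0.46, the last not past the threshold with TPM scaling (-0.16). DDB1 shares exonic bases with TKFC, and CSNK2B with GPANK1, on the opposite strand. Both partners fell too, TKFC by 1.15 and GPANK1 by 0.90 on the log2 scale, so the falls of DDB1 and CSNK2B are uncertain in the same way as that of DBP. CSNK2B also shares 177 exonic bases with LY6G5B on its own strand, and LY6G5B rose by a log2 change of 1.84. Of the partners, the deacetylase SIRT1 rose by a log2 change of 0.86, and by 0.45 with the offsets. The histone methylation factor WDR5 fell by 0.97, the PER-binding protein NONO by 0.48 and the corepressor HDAC3 by 0.34. The fall of NONO was lost with quantile normalization (-0.10) and that of HDAC3 with TPM scaling (-0.04). KMT2A, a methyltransferase recruited by CLOCK, was called higher with a log2 change of 0.27. With the offsets the change turned to -0.23 and was called lower (adjusted p = 0.00323 by edgeR).

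**Figure D5:**
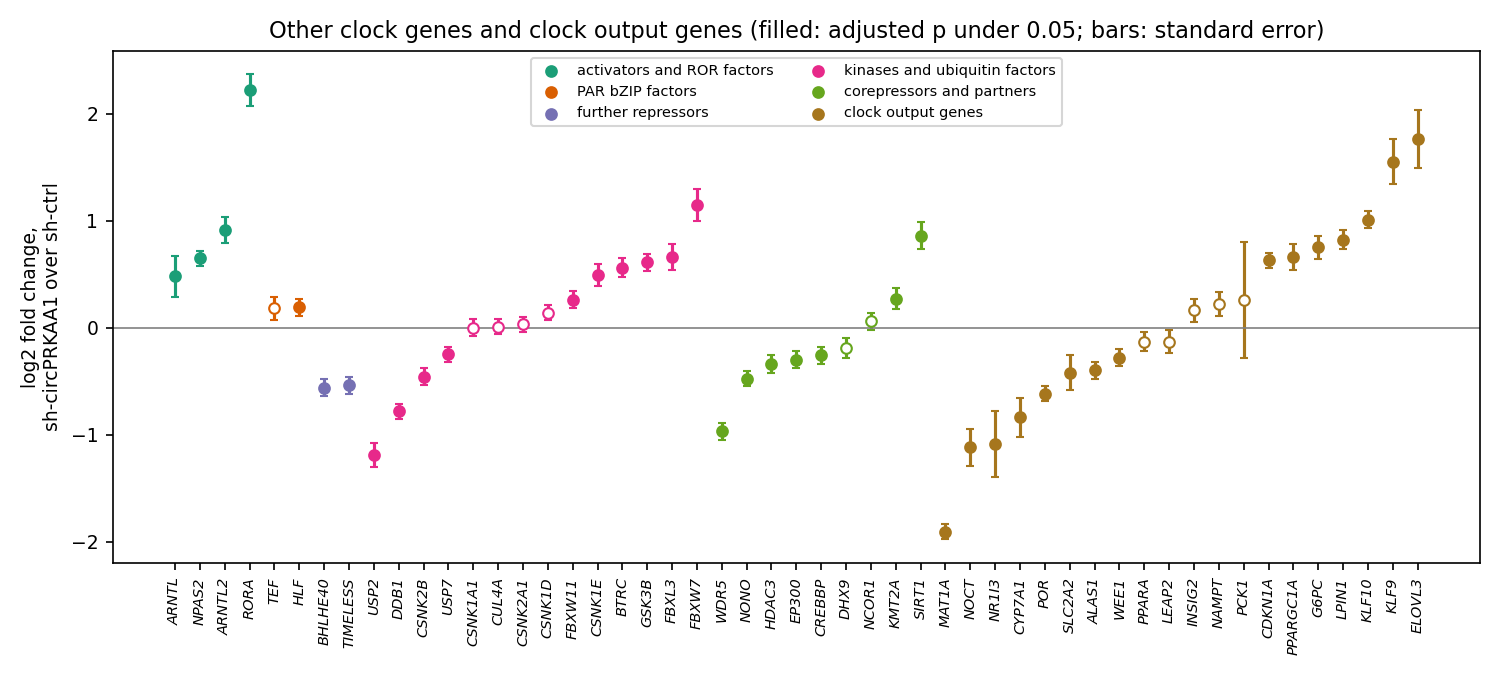
Log2 fold changes, sh-circPRKAA1 over sh-ctrl, of tested genes among the other clock genes and the clock output genes, ordered within each role. Filled points passed an adjusted p of 0.05 in edgeR and bars show the standard error over 6 libraries. RORA is the highest of the clock genes drawn, and USP2 and MAT1A are the lowest clock gene and the lowest output gene drawn.

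Of 24 genes that are described as clock outputs, mostly from mouse liver, 21 were tested. In edgeR with TMM scaling 8 were higher and 8 lower, with a median log2 change of 0.16. The called share of 76.2% stands beside 68.4% of all genes. The balance depended on the adjustment: with the GC and length offsets 7 were higher and 11 lower, with a median of -0.28, and with TPM scaling 10 were higher and 4 lower. KLF10, a Krüppel-like repressor of glucose genes, and LPIN1, a phosphatidate phosphatase, rose by log2 changes of 1.01 and 0.82. MAT1A, which makes S-adenosylmethionine in hepatocytes, had 109, 112 and 107 CPM in sh-circPRKAA1 libraries and 421, 398 and 408 CPM in sh-ctrl libraries. It fell by 1.91 on the log2 scale (SE 0.07, adjusted p = 9.14e-12 by edgeR). POR, the electron donor of microsomal cytochromes P450, fell by 0.62 and NOCT (nocturnin), a rhythmic phosphatase of NADPH, by 1.12.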

How the data were processed

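Per the file headers, the authors deposited a table of raw counts, exonic lengths and FPKM for 6 libraries. Per the labels' protocols, a SMARTER mRNA-Seq kit was used on total RNA. The submitters' processing notes name GRCm38, mm10 and hg18 with no role, 2 of them mouse builds; gene positions in the table instead overlap GRCh38. Aligner, counter and strand setting are not given in these sources. The deposited FPKM equalled count per exonic length and library total within 0.005 in the 5 numbered columns, and 1 per-sample column, an FPKM column without a replicate number, was not used. FPKM given here were computed from counts, lengths and TMM-scaled totals. Of the gene identifiers 96.3% were found in GENCODE 29 (GRCh38), and 99.9% of those overlap its coordinates there. It is the source of coordinates, overlaps and GC content (longest transcript).

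Titles gave groups and replicate numbers. In 2 of the 3 knockdown samples another label names circPRKAA2 or circPRKAA3 in place of circPRKAA1. Separate cultures are not stated, so p-values reflect only the spread among these 6 libraries, possibly technical. Libraries of a group differed by more than sampling noise (chi-square over its degrees of freedom 3.82 to 16.1).

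Counts were filtered with filterByExpr (minimum count 10, minimum total count 15), scaled by TMM and tested with edgeR 4.0.16 (R 4.3.3) by quasi-likelihood across all 14990 genes, with Benjamini-Hochberg adjustment and a threshold of 0.05. The standard error is the log2 change divided by the square root of F. Alternatives used limma 3.58.1, DESeq2 1.42.0 and offsets from mgcv 1.9.3. Ratios used a prior count of 0.5. Promoters are from RefSeq (GRCh38.p14), and all 10 members matched. The members and lists were chosen with earlier results of these data known. Named are all members, the genes of each role and direction with the 3 smallest p among those called, and ARNTL, NPAS2, RORA, TEF, HLF, BHLHE40, BHLHE41 and CIART. RORB was named after its values were seen. A few genes picked by these rules are left out of the text and figures.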

Additional observations from a re-analysis of the deposited data

How the results depend on the processing

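Each call was recomputed under 20 alternatives. Of the members, PER3, CRY1 and NR1D1 passed with the same sign in all 20, DBP in the 19 that tested it, CRY2 in 19, CLOCK and NR1D2 in 18 and PER1 in 16. The number of clock genes that rose was 4 to 7 over the alternatives, against 6. The number that fell, 2, was 1 with library totals, TPM scaling, both limma fits on FPKM and the filter on a mean FPKM of at least 1, which leaves DBP untested. It was 3 with median of ratios, quantile normalization, DESeq2, no filter, the GC and length offsets (with or without the replicate block) and without sh-ctrl replicate 2. PER2 turned to 0.05 with TPM scaling. Gene by gene, the median shift of the log2 change from edgeR with TMM scaling was 0.20 with library totals and 0.29 with TPM scaling. It was 0.17 and 0.20 with limma on FPKM and -0.10 with quantile normalization. Over all genes, TPM scaling left 2956 lower calls, against 4852. Of the other clock genes 12 fell, against 7 with library totals, 6 with TPM scaling, 7 in each limma fit, and 19 with GC and length offsets with or without the replicate block. Of the output genes 8 fell, against 4 with TPM scaling, 5 in each limma fit and 11 with the offsets, with or without the block. The offsets turned HLF to -0.15 and KMT2A to -0.23, both called lower, with and without the block. The cause of these shifts was not tested. Without 1 library at a time, the log2 differences of ratios ranged from 0.70 to 1 for PER3 per PER2, -1 to -0.79 for DBP per NFIL3 and 0.30 to 0.68 for CRY1 per CRY2.

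With the replicate number as a block 9844 genes passed, against 10257, and 6 clock genes rose and 2 fell as without it. The block ended the call of HLF among the named genes (0.19, adjusted p = 0.0641 by edgeR, range over alternatives 4.95e-05 to 0.189). Deviations of same-numbered libraries correlated at -0.092, -0.149 and 0.041, and those of differently numbered libraries at -0.069 to 0.159. With 3 libraries per group, these values cannot decide whether the numbers pair the libraries. Of the members, DBP had the fewest counts. Among the other clock genes, BHLHE41 and CIART were so shallow that only the fit with no filter tested them.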
